A study of Mus musculus with 12 samples.

Results

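The data were examined for 10 receptor tyrosine kinases as possible bypass receptors, that is, receptors that neither inhibitor of the experiment was meant to block and that might rise when Met and the FGF receptors are inhibited. The members were listed by gene symbol, with earlier results of these data known: Pdgfra, Pdgfrb, Axl, Mertk, Kit, Igf1r, Insr, Ddr1, Ddr2 and Ror2. Each of the 10 symbols was found in 1 row among the 55573 genes of the count table, in each of the 12 libraries. Of these, 8 had enough reads to be tested, and Kit and Ror2 had no read in any library.

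Receptor tyrosine kinases carry a signal across the cell membrane. A ligand outside the cell brings receptor chains together, the kinase domains inside phosphorylate each other, and adaptor proteins bind the phosphorylated sites and pass the signal to the Ras-MAPK and PI3K-Akt pathways. Met and the FGF receptors use many of the same adaptors as the receptors followed here, which is why a tumour cell that keeps or gains another receptor can, in principle, feed the same pathways when Met or FGFR is blocked.

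The samples were tumourspheres, floating spheres grown in serum-free medium, of the mouse mammary tumour lines A1005, A1129 and A1471. All 3 lines carry the genotype MMTV-Metmt;Trp53fl/+;Cre, and each comes from a separate tumour of spindle-shaped, mesenchymal appearance. In this genotype the mouse mammary tumour virus promoter drives an activated Met, and a floxed copy of the tumour suppressor gene Trp53 is removed by Cre. The paper states that the endogenous Met locus also becomes amplified in this model. Whether the Met reads came from the transgene or from that locus was not tested. Spheres of each line were kept for 24 h with the vehicle DMSO, with the Met inhibitor Crizotinib, with the FGFR inhibitor PD173074 or with the combination of both, which gave 1 library per line and treatment (n = 3 lines per treatment). The medium held insulin, EGF and bFGF, so that insulin, a ligand of Insr and at high levels of Igf1r, was supplied from outside in every group, as the methods of the study describe it.

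Libraries held 13031492 to 17750476 counts. Met was the most abundant receptor tyrosine kinase transcript, at 2126 to 8327 CPM, the read count scaled to the size of the library, and Fgfr1 was present at 217 to 337 CPM in every library, so that the named target of each inhibitor was expressed in every line. Trp53 was at 2.60 to 7.94 CPM. The 6 endothelial markers summed to at most 0.888 CPM in any library, the 8 immune markers to 4.47 to 41.9 CPM and the 6 epithelial markers to 7.32 to 52.3 CPM, against 3298 to 10650 CPM for the 8 mesenchymal markers. In such bulk samples, a change in the share of cells that express a gene and a change in its level per cell cannot be told apart.

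The receptors differed widely in level. Because longer transcripts give more reads, levels of different genes were compared as CPM per kb of exon. With DMSO, Axl stood at 123 ± 23.9 CPM per kb (SD, n = 3 lines), which placed it at rank 2, after Met, among 58 receptor tyrosine kinases. Ddr2 followed at 33.3 ± 12.2, Ddr1 at 12.7 ± 10.7, Pdgfra at 11.0 ± 5.54, Igf1r at 4.36 ± 1.004, Mertk at 3.94 ± 1.30, Insr at 3.50 ± 0.824 and Pdgfrb at 0.727 ± 0.565 CPM per kb. Axl did not overlap with Ddr2 over the lines. Ddr2 and Ddr1 overlapped, as did Ddr1 and Pdgfra, and Igf1r, Mertk and Insr were not separated beyond the spread between lines. Pdgfrb lay below all of these in every line.

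With the combination the order changed below Axl, which stayed first of the 10 at 136 ± 29.9 CPM per kb. Ddr1 reached 42.6 ± 19.1 and stood beside Ddr2 at 41.4 ± 4.97, and Pdgfrb reached 8.51 ± 8.69, a mean above those of Igf1r at 5.01 ± 1.17, Insr at 4.85 ± 1.41 and Mertk at 3.88 ± 1.60 CPM per kb. This order held in A1005 and A1471, whereas in A1129 Pdgfrb stood at 0.824 CPM per kb, below the 5.93 of Igf1r, the 5.92 of Insr and the 5.72 of Mertk. Ddr1 in A1129 was at 21.4 CPM per kb, below Ddr2 at 40.8 and Pdgfra at 31.8. Among the 58 receptor tyrosine kinases, ranked by the mean over the lines, Ddr1 moved from rank 9 to rank 3 and Pdgfrb from rank 23 to rank 11. Of the summed level per kb of all these receptors except Met, the 10 members made up 52.7% ± 2.63 with DMSO and 62.1% ± 4.97 with the combination, and the ranges of 50.3% to 55.5% and of 57.7% to 67.5% did not overlap. In A1129 the share went only from 55.5% to 57.7%. With PD173074 alone it was 59.4% ± 2.38 (57.4% to 62.0%). Such a share also rises when other receptors fall, and the sum holds Epha2, no member, which went from 38.7 to 2.10 CPM per kb with the combination. Both discoidin domain receptors together went from 12.7% ± 4.36 to 20.0% ± 5.07 and both PDGF receptors from 3.19% ± 1.32 to 7.05% ± 1.36 of that sum, while Axl held 33.6% ± 5.85 and 31.9% ± 4.02.

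**Figure D1:**
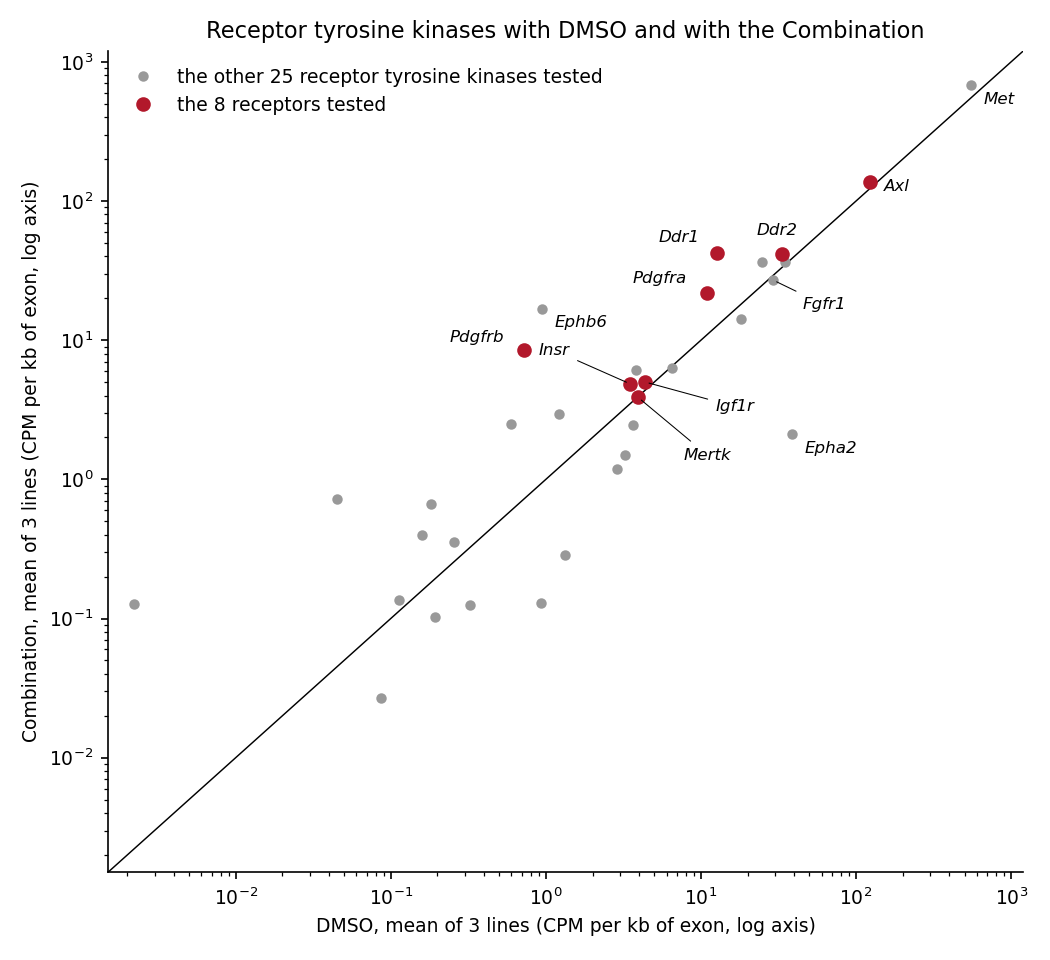
Each point is a receptor tyrosine kinase, with its mean level over the 3 lines with DMSO on the x axis and with the combination on the y axis, both in CPM per kb of exon on log axes, for the 33 of 58 receptors with enough counts to be tested; the diagonal marks equal levels. Pdgfrb, Ddr1 and Pdgfra lie above the diagonal, Axl lies close to it near the top, and Epha2, which is no member, lies far below it.

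The question of the main comparison was which of these receptors change when Met and FGFR are inhibited together. In the test of the combination against DMSO, unpaired as the methods of the study state, 0 of the 8 tested members passed an adjusted p of 0.05 with edgeR, against 14.4% of the 13836 tested genes. Only 1 member, Pdgfrb, had an unadjusted p under 0.05. DESeq2 in the same unpaired design called 1 member, Pdgfrb, with an adjusted p of 0.0107, and limma-voom called 0. The lines differed strongly in the starting level of several receptors: the highest line was 13.6 times the lowest for Pdgfrb, 6.08 times for Ddr1 and 2.77 times for Pdgfra with DMSO. When the cell line was kept as a block, so that each treated library was compared with the DMSO library of its own line, 5 of 8 members rose (Pdgfrb, Ddr1, Pdgfra, Insr and Ddr2) and 0 fell. In that fit 54.8% of all tested genes passed in either direction, and 28.6% of all tested genes rose. The median log2 change of the 8 tested members was 0.42, beside 0.03 for all tested genes. Because the members were listed with earlier results of these data known, this difference is no independent support for a rise of the group.

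**Figure D2:**
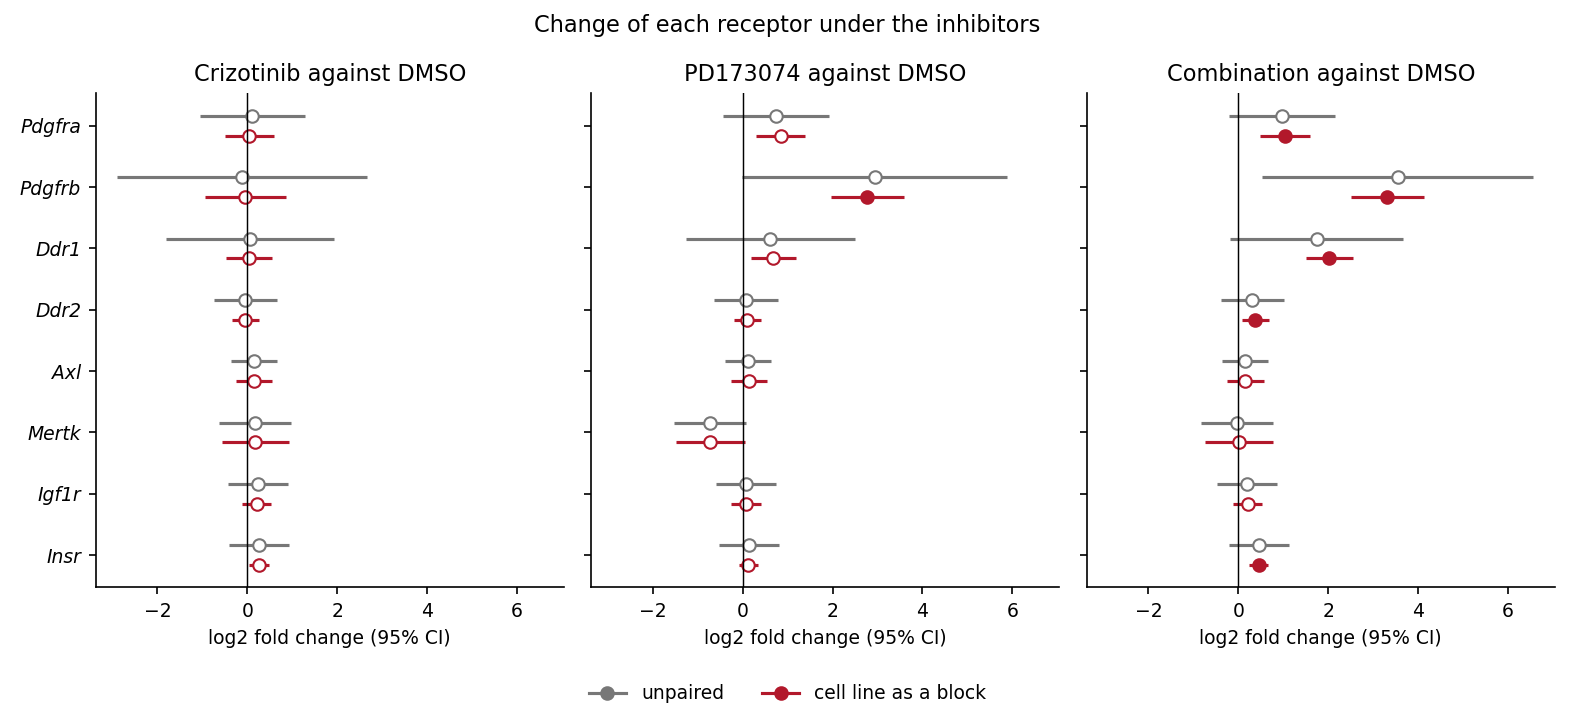
Log2 fold changes of the 8 tested receptors with 95% confidence intervals, for each treatment against DMSO, from the unpaired fit (grey) and the fit with the cell line as a block (red); filled points passed an adjusted p of 0.05. With the combination the filled points are Pdgfra, Pdgfrb, Ddr1, Ddr2 and Insr, all in the blocked fit, and with PD173074 only Pdgfrb.

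Pdgfrb, the receptor for PDGF-B and PDGF-D that marks pericytes and fibroblasts, had the largest change of the 10. With DMSO it was at 6.25 CPM in A1005, 0.460 CPM in A1129 and 5.25 CPM in A1471. With the combination it was at 37.1, 4.51 and 98.3 CPM in the same order. Every line was higher with the combination than with DMSO, but A1129 with the combination stayed below A1005 and A1471 with DMSO, so that the groups overlapped. The counts behind the A1129 values were 7 with DMSO and 72 with the combination, so this line is the least precise. The log2 fold change was 3.55 ± 1.36 (SE, adjusted p = 0.114) in the unpaired fit and 3.32 ± 0.37 (adjusted p = 6.09e-05) with the block. Pdgfrb lies at mm10 chr18:61045150-61085061 on the plus strand.

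With PD173074 alone Pdgfrb was also higher in each line. It was at 24.2 CPM in A1005, 3.65 CPM in A1129 and 63.8 CPM in A1471, a log2 fold change against DMSO of 2.77 ± 0.37 (adjusted p = 0.00773 with the block; 2.94 ± 1.32 and 1.0 unpaired). Without line A1471 the blocked call was lost (adjusted p = 0.128). With Crizotinib Pdgfrb was at 4.03, 1.06 and 5.97 CPM, below the DMSO library in A1005 and above it in A1129 and A1471. The combination and PD173074 differed by 0.54 (95% confidence interval -0.14 to 1.22, adjusted p = 0.184 with the block), higher with the combination in 3 of 3 lines.

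Pdgfra, which binds PDGF-A and PDGF-C and is widely expressed in mesenchymal cells, was at 97.6, 171 and 61.5 CPM with DMSO and at 144, 319 and 190 CPM with both inhibitors, in the order A1005, A1129, A1471. It was higher with the combination in 3 of 3 lines, most in A1471. The ranges of the groups overlapped, because A1129 started above A1005 with the combination. The log2 fold change was 0.98 ± 0.53 (adjusted p = 0.256) unpaired and 1.04 ± 0.25 (adjusted p = 0.0051) with the block. With PD173074 Pdgfra was at 157, 240 and 155 CPM, and the blocked change of 0.85 ± 0.25 did not pass with edgeR (adjusted p = 0.119) but passed with DESeq2 (adjusted p = 0.0232).

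The balance of both receptors differed between the lines. Per kb of exon, Pdgfrb stood at 0.948 of Pdgfra in A1471 with the combination, up from 0.156 with DMSO. In A1005 the ratio went from 0.117 to 0.473. In A1129 Pdgfra was in large excess with either, at ratios of 0.00494 and 0.0259. Pdgfra spans mm10 chr5:75152292-75198215 on the plus strand, and its exons share 456 bases with the antisense gene Gm42802, which had at most 7 counts in a library.

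**Figure D3:**
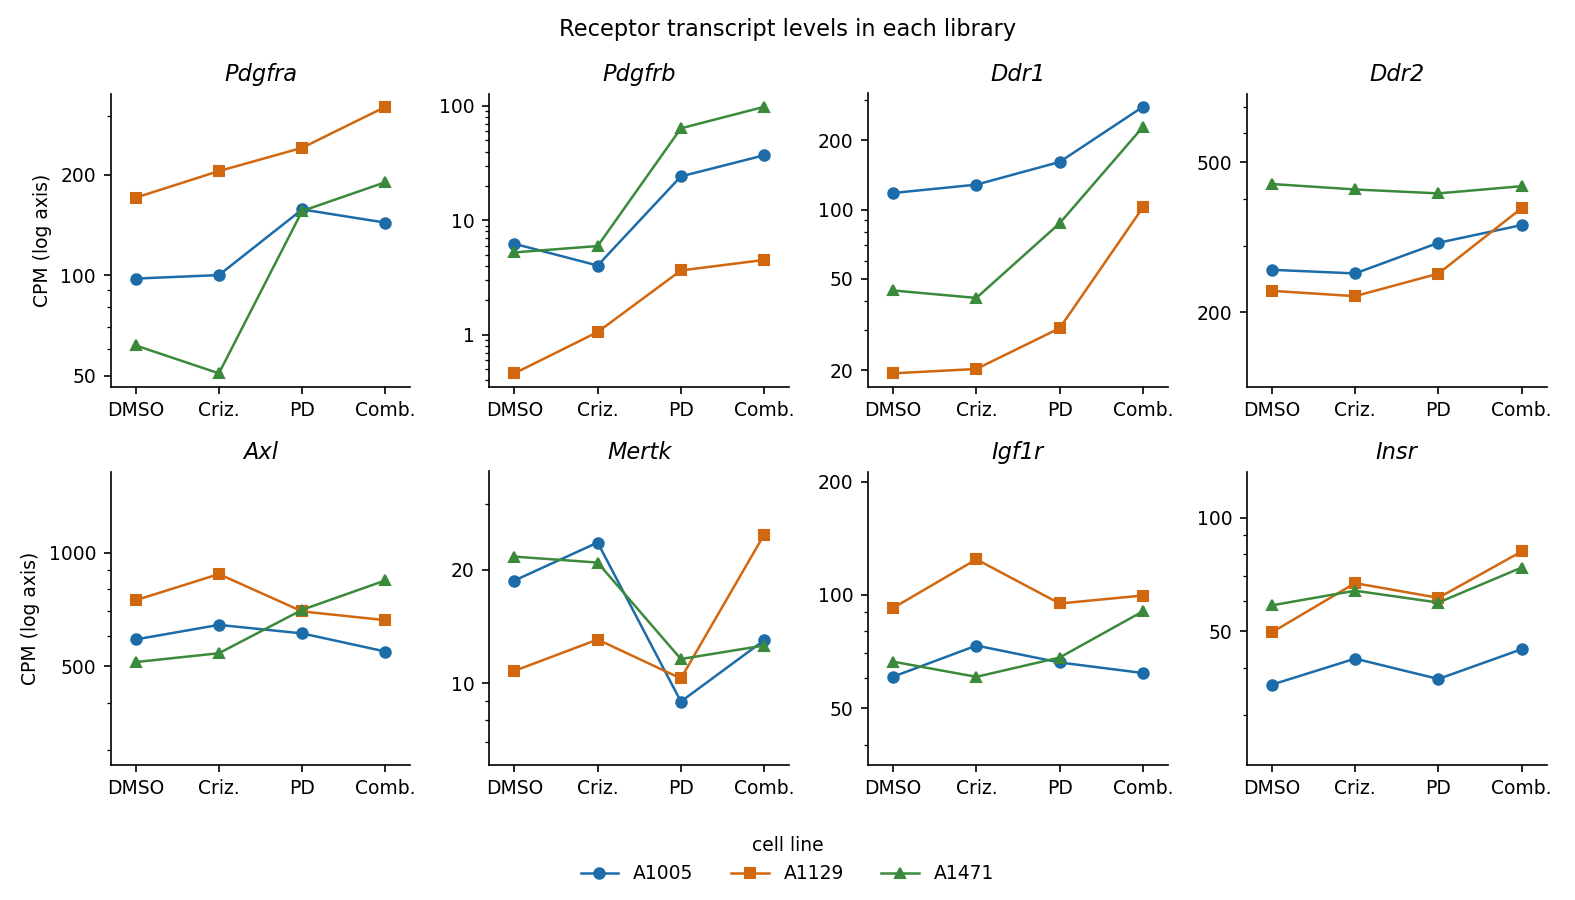
Levels of the 8 detected receptors in every library, in CPM on log axes, by treatment (Criz., Crizotinib; PD, PD173074; Comb., both inhibitors); a line joins the 4 libraries of a cell line. Pdgfrb and Pdgfra are higher with PD173074 and with the combination in each line, Ddr1 is highest with the combination in each line, and with the combination Mertk is higher than with DMSO in A1129 and lower in the other lines.

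The ligands of the PDGF receptors were also present. Pdgfc, which encodes a ligand of Pdgfra, was at 28.3, 4.14 and 1.93 CPM with DMSO and at 57.3, 162 and 85.5 CPM with both inhibitors (A1005, A1129, A1471). These ranges did not overlap. Its log2 fold change was 3.15 ± 1.10 (adjusted p = 0.0868) unpaired and 3.94 ± 0.80 (adjusted p = 0.00212) with the block, and the combination was also above PD173074 alone (2.06 ± 0.71, adjusted p = 0.0408 with the block). Pdgfa, whose product also binds Pdgfra, went the other way, from 36.9, 33.2 and 33.1 CPM to 30.6, 20.3 and 12.8 CPM, a change of -0.73 ± 0.24 that passed with the block (adjusted p = 0.0281) and not without it (adjusted p = 0.19). Pdgfb, a ligand of both receptors, was at most 0.468 CPM with DMSO and at 0.376 to 3.39 CPM with the combination. Its log2 fold change of 2.83 ± 0.45 passed with the block (adjusted p = 0.000486), from 1 to 6 counts per DMSO library. Pdgfd was found almost only in A1005, at 2.03 CPM with DMSO and 1.17 CPM with the combination, and did not pass (adjusted p = 0.447 with the block).

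Ddr1 and Ddr2 are receptors for collagen rather than for a soluble growth factor. Ddr1 is the family member of epithelia and binds collagen types I and IV, and Ddr2 is the member of mesenchymal cells and binds fibrillar collagens. Ddr1 was at 118, 19.4 and 44.5 CPM with DMSO in A1005, A1129 and A1471, at 161, 30.5 and 87.1 CPM with PD173074 and at 280, 102 and 228 CPM with the combination. It was highest with the combination in each of the 3 lines. The combination in A1129 fell between the DMSO values of the other lines, so that the groups overlapped.

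The log2 fold change of Ddr1 with the combination was 1.75 ± 0.86 (adjusted p = 0.216) unpaired and 2.03 ± 0.24 (adjusted p = 7.97e-05) with the block, with log2 changes of 1.24, 2.39 and 2.36 in A1005, A1129 and A1471 taken singly. Crizotinib alone left it at 128, 20.3 and 41.3 CPM, a change of 0.04 (95% confidence interval -0.47 to 0.55 with the block). PD173074 alone gave 0.68 ± 0.23, which did not pass (adjusted p = 0.177 with the block). The rise with the combination was larger than the sum of both single changes by 1.31 ± 0.32 (adjusted p = 0.0249 with the block). Without the block this departure was 1.07 ± 1.19 (adjusted p = 0.962), and with the block it was not called without line A1129 (adjusted p = 0.193) or without line A1471 (adjusted p = 0.168).

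Ddr2 was at 259, 228 and 438 CPM with DMSO and at 341, 378 and 432 CPM with the combination. It was higher in A1005 and A1129 and slightly lower in A1471, the line with the highest starting level. The log2 fold change of 0.38 ± 0.14 passed with the block (adjusted p = 0.038) and not without it (0.31 ± 0.32, adjusted p = 0.573), and it was lost without line A1005 (adjusted p = 0.129) or without line A1129 (adjusted p = 0.278). Per kb of exon, Ddr1 stood at 0.883, 0.165 and 0.197 of Ddr2 with DMSO and at 1.59, 0.524 and 1.03 with both inhibitors, in the same order of lines, higher in each line.

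The promoters of Ddr1, Ddr2 and Pdgfra are printed because these members passed in the blocked comparison. Pdgfrb and Insr passed there too, but no window of theirs was used here. Each window of 300 bases runs from 250 bases before an annotated start of the RefSeq gene to 50 bases after it, in the GRCm38.p6 assembly (mm10) and on the strand of the gene, and 8 of the 10 members had such a window. Ddr1 has 4 starts, of which the outermost and the innermost are shown. The Ddr2 window lies inside the annotated gene, whose first base on the minus strand is at 170110762, and no Ddr2 window covered that end. Capitals mark matches, on either strand, to 8 short motifs: the FoxO motif GTAAACA, the AP-1 motif TGAGTCA, the ETS motif CCGGAAG, the TEAD motif GGAATG, the E2F motif TCCCGC, the GC box GGGCGG, the TATA box TATAAA and the E-box CACGTG.
Ddr1, outermost start, chr17:35704550-35704849, minus strand: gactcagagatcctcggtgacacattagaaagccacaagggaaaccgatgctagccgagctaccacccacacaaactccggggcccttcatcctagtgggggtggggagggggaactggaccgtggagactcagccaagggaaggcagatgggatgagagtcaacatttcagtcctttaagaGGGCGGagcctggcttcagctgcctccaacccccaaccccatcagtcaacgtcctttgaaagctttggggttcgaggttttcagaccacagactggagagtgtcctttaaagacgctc
Ddr1, innermost start, chr17:35700541-35700840, minus strand: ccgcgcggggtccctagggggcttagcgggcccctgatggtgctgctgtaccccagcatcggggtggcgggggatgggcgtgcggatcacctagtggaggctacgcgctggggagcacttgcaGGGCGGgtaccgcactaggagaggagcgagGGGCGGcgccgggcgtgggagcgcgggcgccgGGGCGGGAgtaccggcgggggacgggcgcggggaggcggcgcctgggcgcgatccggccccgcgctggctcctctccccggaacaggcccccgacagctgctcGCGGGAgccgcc
Ddr2, chr1:170088895-170089194, minus strand: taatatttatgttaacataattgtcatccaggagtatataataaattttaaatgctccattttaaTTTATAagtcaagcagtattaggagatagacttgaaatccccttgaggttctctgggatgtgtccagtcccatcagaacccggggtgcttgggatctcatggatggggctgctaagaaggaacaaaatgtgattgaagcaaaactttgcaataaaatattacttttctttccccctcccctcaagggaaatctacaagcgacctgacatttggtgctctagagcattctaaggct
Pdgfra, chr5:75152001-75152300, plus strand: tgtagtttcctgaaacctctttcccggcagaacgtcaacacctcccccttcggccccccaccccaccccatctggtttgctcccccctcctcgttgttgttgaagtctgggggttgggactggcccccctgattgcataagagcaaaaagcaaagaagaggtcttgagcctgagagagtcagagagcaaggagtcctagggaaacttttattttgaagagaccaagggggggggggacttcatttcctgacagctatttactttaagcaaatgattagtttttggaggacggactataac

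The outermost Ddr1 window held 1 match, a GC box. The innermost held 5, which were 3 GC boxes and 2 E2F motifs, and the GC box and the E2F motif overlap at the third of these GC boxes. Its GC content was 77.7%, beside a median of 52.7% over all 32851 windows. Of all windows, 35.7% held a GC box, 20.0% an E2F motif and 13.6% a TATA box. The Ddr2 window had a GC content of 39.0% and held 1 match, to the TATA box on the opposite strand, and the Pdgfra window held none of the 8 motifs. The FoxO, AP-1, ETS and TEAD motifs, found in 3.65%, 5.20%, 8.86% and 14.7% of all windows, were in none of the 4 windows printed. Of the Ddr1 windows not printed, 1 held an AP-1 motif and a GC box.

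Ddr1 spans mm10 chr17:35681567-35704621 and Ddr2 chr1:169972307-170110762, both on the minus strand. The antisense genes Gm4577, within Ddr1, and 3110045C21Rik, within Ddr2, share 216 and 90 exon bases with them and had at most 4 and 16 counts in a library, against at least 295 counts for Ddr1 and 3323 for Ddr2.

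The collagen ligands were unevenly spread over the lines. The fibrillar collagen Col3a1 was at 454, 3.42 and 297 CPM with DMSO and at 1167, 19.9 and 945 CPM with both inhibitors, in the order A1005, A1129, A1471. It was higher in 3 of 3 lines (1.80 ± 0.21, adjusted p = 7.69e-05 with the block; adjusted p = 0.677 unpaired). Col1a1 and Col1a2, the chains of collagen type I, were abundant only in A1005, at 229 and 133 CPM with DMSO and 759 and 773 CPM with the combination, and at most 0.755 CPM in the DMSO and combination libraries of the other lines. The basement membrane chains Col4a1 and Col4a2 were at 285 to 968 and 210 to 696 CPM with DMSO and changed by 0.00 ± 0.19 and 0.08 ± 0.17 (adjusted p = 0.995 and 0.698 with the block). Col5a1 was at 330, 87.9 and 155 CPM with DMSO and at 372, 101 and 202 CPM with the combination, a small rise with the block (0.26 ± 0.10, adjusted p = 0.0485) that did not pass without it (adjusted p = 0.873). Col2a1 had at most 3 counts in a library and Col10a1 had none.

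Axl and Mertk belong to the TAM family, whose ligands Gas6 and protein S bridge the receptor to phosphatidylserine on membranes. Axl is known as a receptor of mesenchymal and drug-tolerant tumour cells. Its level was high in every library, at 589, 748 and 513 CPM with DMSO and 547, 663 and 845 CPM with both inhibitors, again in the order A1005, A1129, A1471. It was lower with the combination in A1005 and A1129 and higher in A1471. The log2 fold change was 0.15 (95% confidence interval -0.36 to 0.66, adjusted p = 0.731) unpaired and 0.16 (-0.25 to 0.57, adjusted p = 0.482) with the block. With PD173074 it was at 611, 699 and 706 CPM and with Crizotinib at 644, 878 and 541 CPM.

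Mertk, known best from macrophages and the retinal pigment epithelium, was at 18.7, 10.8 and 21.7 CPM with DMSO, at 8.94, 10.3 and 11.6 CPM with PD173074 and at 13.01, 24.8 and 12.6 CPM with the combination. With the combination it was lower in A1005 and A1471 and higher in A1129, by log2 changes of -0.52, -0.78 and 1.19. The change over the 3 lines was -0.02 (95% confidence interval -0.82 to 0.78) unpaired and 0.01 (-0.74 to 0.77) with the block, with adjusted p of 0.98 and 0.976. Without line A1129 the blocked change was -0.65 ± 0.17 and passed (adjusted p = 0.026). With PD173074 the change was -0.73 ± 0.36 (adjusted p = 1.0) unpaired and -0.72 ± 0.34 (adjusted p = 0.35) with the block, lower in 3 of 3 lines. Of the 8 immune markers only 2, Cd68 and Ptprc, had enough reads to be tested. With DMSO Cd68 was at 17.7, 4.21 and 5.18 CPM in A1005, A1129 and A1471. With the combination it was at 24.4, 10.8 and 8.22 CPM, higher in each line. Its change of 0.82 ± 0.20 passed with the block (adjusted p = 0.00603) and not without it (adjusted p = 0.624). Ptprc did not pass with the block (adjusted p = 0.881). Among the other immune markers, Adgre1, Itgam and Lyz2 had at most 1, 2 and 0 counts in a library. The summed level of the 8 ranged from 4.47 to 31.5 CPM with DMSO and from 8.30 to 41.9 CPM with the combination.

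Axl lies at chr7:25757273-25788705 on the minus strand and Mertk at chr2:128698956-128802894 on the plus strand of mm10. Gas6, the ligand with the highest affinity for Axl, had at most 2 counts in any library. Pros1, which encodes protein S, a ligand of Mertk, was at 56.3, 71.0 and 6.28 CPM with DMSO and at 127, 52.5 and 9.05 CPM with the combination. Its change of 0.47 ± 0.30 did not pass (adjusted p = 0.199 with the block, 0.838 unpaired). Tyro3, the remaining TAM receptor, is counted with the other receptors.

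**Figure D4:**
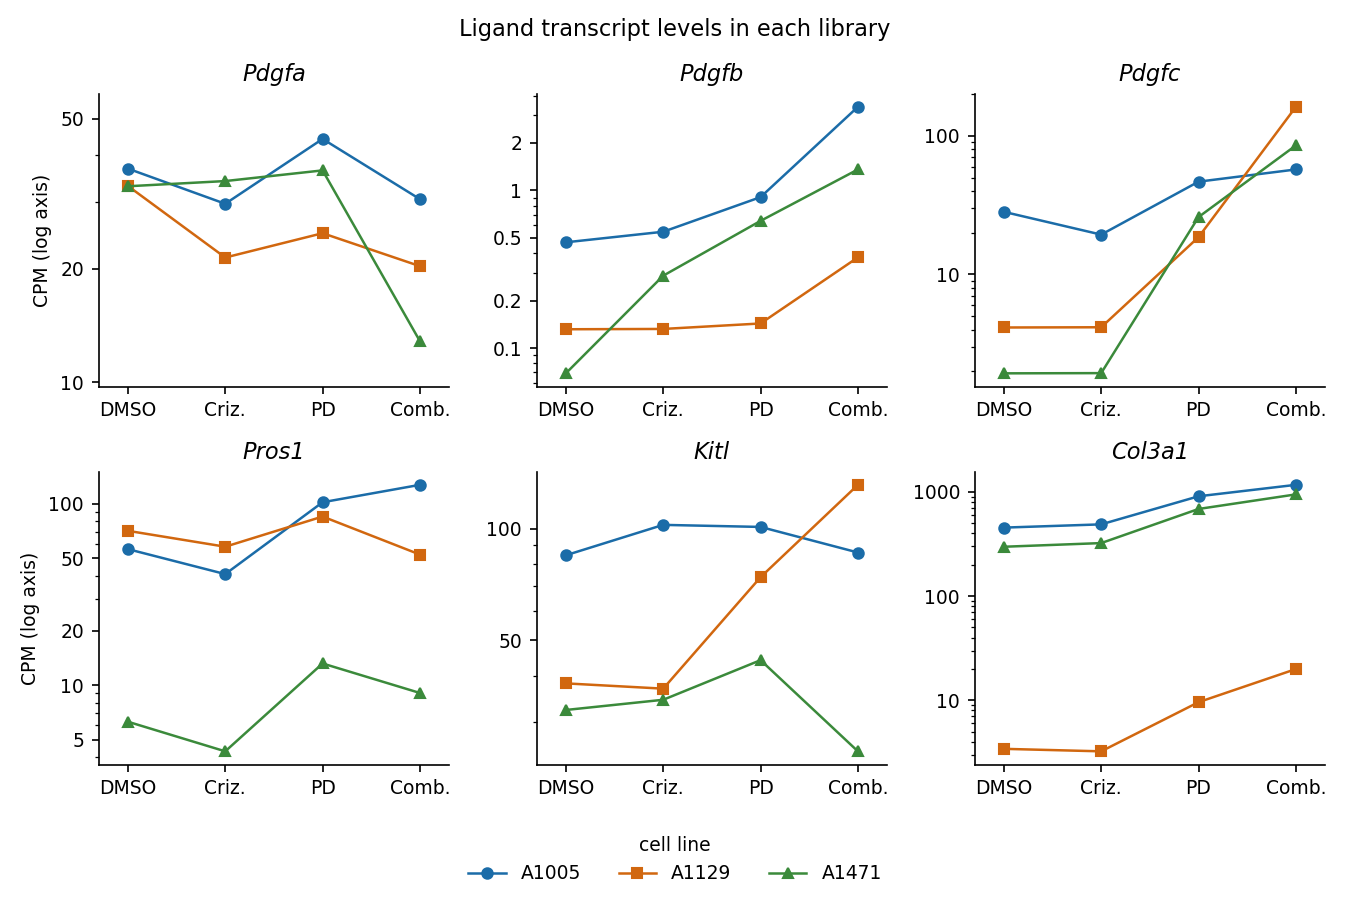
Levels of 6 ligand transcripts in every library, in CPM on log axes, by treatment; a line joins the 4 libraries of a cell line. Pdgfc and Col3a1 are highest with the combination in each line, Pdgfb is low throughout, and Kitl and Pros1 differ in direction between lines.

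Igf1r and Insr bind IGF1, IGF2 and insulin and signal mainly through the Irs adaptors. Insr was at 36.1, 49.7 and 58.6 CPM with DMSO and at 44.8, 81.4 and 73.8 CPM with both inhibitors, in the order A1005, A1129, A1471. Every line was higher, by log2 changes of 0.31, 0.71 and 0.33, although the ranges of the groups overlapped. The change was 0.47 ± 0.30 (adjusted p = 0.342) unpaired and 0.45 ± 0.10 (adjusted p = 0.00288) with the block, and the blocked call was kept without each line in turn (adjusted p = 0.0103 to 0.0438). With Crizotinib Insr was at 42.3, 67.1 and 64.1 CPM, higher in 3 of 3 lines, with an unadjusted p of 0.0221 and an adjusted p of 1.0 with the block.

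Igf1r was at 60.7, 92.3 and 66.5 CPM with DMSO and at 62.0, 99.6 and 90.5 CPM with the combination. The log2 fold change was 0.20 (95% confidence interval -0.47 to 0.87, adjusted p = 0.728) unpaired and 0.21 (-0.12 to 0.54, adjusted p = 0.263) with the block. Taken line by line it was 0.03, 0.11 and 0.44. Igf1r lies at chr7:67952827-68233668 on the plus strand and Insr at chr8:3122061-3279617 on the minus strand of mm10. Transcripts of their ligands were at or near 0: Ins1, Ins2 and Igf2 had 0 counts in all libraries, and Igf1 had 3, 16 and 1 counts with both inhibitors and 0 counts in the other 9 libraries.

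Kit, the receptor for stem cell factor in mast cells and melanocytes, and Ror2, a Wnt5a receptor of mesenchymal cells, had 0 counts in all 12 libraries. The 3 counts that a count of 0 allows correspond to 0.167 to 0.234 CPM in these libraries, so a rise above that level was not seen with either inhibitor or with both. Kit is annotated at chr5:75574916-75656722 on the plus strand and Ror2 at chr13:53109312-53286124 on the minus strand of mm10. Kitl, the ligand of Kit, was present at 84.7, 38.2 and 32.4 CPM with DMSO and at 86.2, 131 and 25.1 CPM with the combination (0.60 ± 0.38, adjusted p = 0.204 with the block), and Wnt5a had at most 2 counts in a library.

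With the block, fewer members passed with a single inhibitor than with the combination, and so did fewer of all tested genes (54.8% with the combination). With PD173074, 0 of 8 passed in the unpaired fit, where 0% of all tested genes passed and 0 members had an unadjusted p under 0.05, and 1 passed with the block, Pdgfrb, against 2.14% of all tested genes. DESeq2 called 0 members unpaired and 2 with the block, Pdgfrb and Pdgfra, and limma-voom called 0 and 1. With Crizotinib, 0 of 8 members passed unpaired and 0 with the block, against 0% of all genes in both fits. There 0 members unpaired and 1 with the block, Insr, had an unadjusted p under 0.05, and DESeq2 and limma-voom also called 0 members. The blocked changes with Crizotinib lay between -0.05 for Pdgfrb and 0.26 for Insr, and the widest interval was that of Pdgfrb, from -0.94 to 0.85.

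The combination was then compared with each inhibitor alone. Against Crizotinib, 0 of 8 members passed unpaired (13.2% of all tested genes), with Pdgfrb the only member under an unadjusted p of 0.05, called by DESeq2 and not by limma-voom. With the block 4 rose and 0 fell, where 53.4% of all genes passed and 27.4% as rises: Pdgfrb by 3.36 ± 0.37, Ddr1 by 1.99 ± 0.24, Pdgfra by 1.0 ± 0.25 and Ddr2 by 0.42 ± 0.14 on the log2 scale. The call of Ddr2 was lost without line A1005 (adjusted p = 0.0988) or without line A1129 (adjusted p = 0.187), and without line A1129 Mertk passed as lower (-0.79 ± 0.17, adjusted p = 0.013). The unpaired changes of the members that passed in neither fit were -0.01 for Axl, -0.19 for Mertk, -0.04 for Igf1r and 0.21 for Insr.

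Against PD173074, 0 of 8 members passed unpaired (4.77% of all tested genes; 0 members under an unadjusted p of 0.05, and 0 called by DESeq2 or limma-voom). With the block 2 rose and 0 fell, where 39.8% of all genes passed and 19.6% as rises. These were Ddr1, by 1.35 ± 0.23 (adjusted p = 0.00162), and Insr, by 0.33 ± 0.10 (adjusted p = 0.0218). The Insr call was lost without each line in turn (adjusted p = 0.0566 to 0.126). Pdgfra differed by 0.20 ± 0.24 (adjusted p = 0.542) and was lower than with PD173074 in A1005. The comparisons against DMSO and against each inhibitor share libraries and are not independent of each other.

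A difference between the combination and the sum of both single changes, on the log2 scale, was called for 0 of 8 members unpaired (0.918% of all tested genes; 0 members under an unadjusted p of 0.05, and 0 called by DESeq2 or limma-voom), and for 1 member with the block, Ddr1, against 16.2% of all tested genes. The blocked departures of the other 7 tested members lay between -0.13 for Axl and 0.59 for Pdgfrb.

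Around the members, the other receptor tyrosine kinases moved in both directions. Of 48 listed, 25 were tested, and in the unpaired comparison of the combination with DMSO 1 was higher and 1 lower, a smaller share than the 14.4% of all tested genes. Unpaired DESeq2 called 3 higher and 1 lower. Ephb6, an ephrin receptor without kinase activity, went from 3.57 ± 2.33 to 63.6 ± 33.5 CPM (4.16 ± 0.67, adjusted p = 0.00382), and Epha2, an ephrin-A receptor of epithelial and tumour cells, from 181 ± 5.56 to 9.82 ± 7.72 CPM (-4.20 ± 0.50, adjusted p = 0.000919). With the block 9 were higher and 9 lower, beside 54.8% of all tested genes. The median log2 change over the 25 was 0.08, beside 0.42 for the 8 tested members, which were listed with earlier results known.

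Of the 18 listed adaptors that carry the signal of these receptors, all tested, 3 rose and 0 fell unpaired, a share near the 14.4% of all tested genes. Irs1, the adaptor of Insr and Igf1r, went from 4.31 ± 3.32 to 33.1 ± 8.29 CPM (2.94 ± 0.70, adjusted p = 0.0219). Pik3r1, the regulatory subunit of PI3K, went from 74.0 ± 21.4 to 287 ± 66.4 CPM (1.96 ± 0.27, adjusted p = 0.00177), and Gab1, a docking protein of Met and other receptors, from 11.4 ± 3.36 to 40.2 ± 18.9 CPM (1.82 ± 0.39, adjusted p = 0.0149). With the block 6 rose and 1 fell, a smaller share than the 54.8% of all tested genes, and the median over the list was 0.24. Of the 14 listed brakes on receptor signalling 13 were tested, and 2 fell unpaired, again near the share of all tested genes: Sh2b3, also called Lnk, from 84.7 ± 39.8 to 22.9 ± 2.66 CPM (-1.89 ± 0.53, adjusted p = 0.0401) and Socs1 from 11.3 ± 1.34 to 4.58 ± 2.38 CPM (-1.30 ± 0.39, adjusted p = 0.0495). With the block 3 brakes rose and 4 fell, also near the share of all tested genes, with a median of -0.18. Unpaired DESeq2 called 1 brake higher and 2 lower, and limma-voom 1 lower. Of the 20 ligands 12 were tested, with 0 calls unpaired in edgeR and 2 under an unadjusted p of 0.05. Unpaired DESeq2 called 2, Pdgfc and Pdgfb, and limma-voom 1, Pdgfc. With the block 6 ligands rose and 1 fell, a share near the 54.8% of all tested genes. Pdgfb, 1 of these rises, was tested only because of libraries with PD173074 or with both inhibitors.

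For each tested member the genes with the most similar pattern over the 12 libraries, after centring log2 CPM within each line, were looked up as a description. The points share lines, treatments and libraries. Pdgfra was most like Lama4 (Pearson r = 0.979) and Angpt1 (0.973), which encode a laminin chain and a ligand of the Tie2 receptor. Pdgfrb was most like Masp1 (0.991), a complement protease, and Axin2 (0.984), a target and inhibitor of Wnt signalling. Ddr1 was most like Fam53b (0.997) and Acox3 (0.995), and Ddr2 like Herpud1 (0.974), a gene of the unfolded protein response, and 4930594M22Rik (0.968). Axl was most like Fn1 (0.943), which encodes fibronectin, and Gm13203 (0.915, at most 33 counts in a library), and Mertk like Arhgap27 (0.960) and Sv2a (0.943). Insr was most like Irs2 (0.952), the other main insulin receptor substrate, and Tyk2 (0.942), and Igf1r like Cc2d1a (0.954) and Msi2 (0.934).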

How the data were processed

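The authors deposited a table of unnormalised read counts for Ensembl genes in 12 libraries of total RNA. Per the labels, the submitters' processing notes name bcl2fastq, STAR, HTSeq and the build mm10, without versions; the use of strand and the annotation release are not given in the sources used here. Groups and lines were taken from the sample labels. The members, gene lists, motifs and tests were chosen with earlier results of these data known.

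With edgeR 4.0.16 under R 4.3.3, filterByExpr (at least 10 counts, and 15 in total) kept 13836 of 55573 genes, libraries were scaled by TMM, and a quasi-likelihood model was fitted unpaired, with Benjamini-Hochberg adjustment over all tested genes and a threshold of 0.05. Values after ± are standard errors for log2 changes and SD over lines for levels. The methods of the study also state an unpaired analysis, with DESeq2 and limma and a log2 change of at least 1.5. The alternatives were DESeq2 1.42.0 and limma-voom (limma 3.58.1), a block for the cell line in all 3 tools, other scalings and filters, a second threshold of 1.5 on the log2 change, a prior count of 0.5 in place of 2, and leaving out each line. The pairing comes from the labels, since libraries of a line are the same cells: deviations from the group means correlated at 0.77 to 0.96 between libraries of the same line (18 pairs) and at -0.66 to -0.05 between lines (36 pairs). Deviations within a group cancel out by construction, which pulls the values between lines below 0, so their sign says nothing about the pairing. No 2 libraries had identical values. Unpaired p-values rest on the spread of levels between the lines used, and p-values with the block on the spread of the changes between these lines.

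Coordinates and exon lengths came from GENCODE vM21 for mm10 (55394 of 55573 genes matched), and promoters from RefSeq. Genes named were the 10 members, every ligand with at least 10 counts in a library, the genes of the other lists past the unpaired threshold with the combination (at most 4 rises and 4 falls), the 2 genes most similar to each tested member, and Met, Fgfr1 and Trp53; other ligands and Tyro3 were named to account for the lists. A count of 0 allows up to 3 counts, and reads without molecular identifiers cover counting error only. The tests were checked on simulated data. Tables and plots used Python 3.11.15.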

Additional observations from a re-analysis of the deposited data

Results flagged for a closer look

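Ddr1 was the only tested member for which the effect of Crizotinib with PD173074 present differed from its effect without it by a test of the difference. With the cell line as a block the departure from the sum of both inhibitors was 1.31 on the log2 scale (edgeR, adjusted p = 0.0249), in the same direction in 3 of 3 lines. It did not pass in the unpaired fit (adjusted p = 0.962), and the blocked call was lost without line A1129 or without line A1471. In that blocked test 16.2% of all tested genes were called, so 1 of 8 members is no more than the general share. Further results stand out because lines moved in opposite directions by at least 0.5, a difference that was not tested because each line has 1 library per treatment. With the combination against DMSO, Mertk changed by 1.19 in A1129 and by -0.78 in A1471. With Crizotinib, Pdgfrb changed by 1.0 in A1129, from 7 to 16 counts, and by -0.61 in A1005, from 80 to 59 counts. Groups of 3 libraries were too small to be searched for outlying samples.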

How the results depend on the processing

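The number of members past the threshold, 0 in each of the 6 unpaired comparisons, was 0 under DESeq2 size factors, total counts alone, no filter, at least 10 counts in every library (which drops Pdgfrb), only the libraries compared, limma-voom and a log2 change of at least 1.5. With the cell line as a replicate block, in edgeR, DESeq2 and limma-voom alike, it was 5 for the combination against DMSO, 4 against Crizotinib, 2 against PD173074 and 1 for the departure. For PD173074 against DMSO it was 1 with edgeR and limma-voom and 2 with DESeq2. Of all tested genes, 54.8%, 53.4%, 39.8%, 16.2% and 2.14% passed in these comparisons, in the same order, with edgeR and the block. Unpaired DESeq2 gave 1 for the combination against DMSO and 1 against Crizotinib. With 1 line left out, with or without the block, the counts were 0 to 5 for the combination against DMSO, 0 to 4 against Crizotinib, 0 to 1 against PD173074, 0 to 1 for PD173074 against DMSO and 0 to 1 for the departure. Crizotinib against DMSO gave 0 throughout.

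Of the log2 changes of single members under the alternatives, 626 kept their direction and their side of the threshold, 73 kept their direction and passed it, and 55 changed sign. For Mertk with the combination against DMSO the log2 change was 0.015 with the block, 0.00084 with DESeq2, 0.041 with both, 0.038 with total counts and 0.016 with at least 10 counts in every library. For Pdgfrb with Crizotinib it was 0.068 with DESeq2 and the block, 0.27 with limma-voom and 0.013 with limma-voom and the block. For Axl with the combination against Crizotinib it was 0.0082 with the block, 0.025 with DESeq2, 0.037 with both, 0.00050 with limma-voom, 0.0031 with limma-voom and the block, 0.026 with DESeq2 size factors, 0.034 with total counts, 0.037 with at least 10 counts in every library and 0.0080 with only the libraries compared. For Igf1r in the same comparison it was 0.028 with DESeq2 and the block, 0.0019 with limma-voom, 0.0046 with total counts and 0.0062 with at least 10 counts in every library. The cause was not tested.

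Leaving out 1 line gave ranges that cross 0. With the combination against DMSO they were -0.13 to 0.35 for Axl and -0.65 to 0.41 for Mertk. With PD173074 Axl ranged from -0.010 to 0.26. With Crizotinib the ranges were -0.099 to 0.18 for Pdgfra, -0.41 to 0.48 for Pdgfrb and -0.049 to 0.10 for Ddr1. With the combination against Crizotinib they were -0.31 to 0.25 for Axl, -0.79 to 0.21 for Mertk and -0.26 to 0.20 for Igf1r, and against PD173074 -0.12 to 0.12 for Axl and -0.015 to 0.26 for Igf1r. For the departure they were -0.0090 to 0.30 for Pdgfra and -0.36 to 0.12 for Igf1r. Levels under total counts (32 values) and changes by line under a prior count of 0.5 (24 values) moved by less than 1 SD. Depth limits Pdgfrb in A1129, Kit, Ror2 and those ligands with few or no counts.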
